A study of Mus musculus with 8 samples.

Results

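Voltage-gated sodium channels are the membrane proteins that open during depolarisation and carry the rising phase of the neuronal action potential. The 7 genes described here encode pore-forming alpha subunits (Scn1a, Scn2a, Scn3a and Scn8a) and auxiliary beta subunits (Scn2b, Scn3b and Scn4b). They were taken by gene symbol from the deposited gene tables, and all 7 were found once in each table, among 55188 genes listed and 16667 tested. No value of theirs carried a failed status.

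The tables come from hippocampal RNA of C57BL/6 mice collected before fear conditioning, the procedure in which an animal learns to associate a place with a shock. The series asks how the hippocampus of wild-type mice (WT) compares with that of mice labelled as knockout (KO) for Pyk2, the calcium-responsive tyrosine kinase that Ptk2b encodes. There were 8 libraries, from WT animals 1 and 2 and KO animals 1 and 2 with 2 technical replicates each, and the technical replicates were averaged so that n = 2 animals per group. Both groups are described as transgenic mice, and the labels used here give no age, no sex and no design of the deleted allele. Whether each number stands for its own mouse is not stated either, so p-values measure the spread between numbered units, which may be technical.

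An alpha subunit is a single long chain whose 4 homologous domains form the pore, the voltage sensors and a fast inactivation gate that plugs the pore soon after it opens. Beta subunits have 1 membrane span and an extracellular immunoglobulin-like domain, and they alter channel gating, surface delivery and cell adhesion. In the adult hippocampus Scn1a is known for its role in GABAergic interneurons, Scn2a for axons and initial segments of excitatory neurons, Scn8a for mature initial segments and nodes of Ranvier, and Scn3a for a mainly embryonic pattern.

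The likeness of the alpha genes bears on how far reads can be assigned to each of them, so their annotated transcripts (GENCODE M21, mm10) were compared. Of all 50-base words in its annotated transcripts, Scn1a shared 4.03%, Scn2a 5.76% and Scn3a 6.49% with some other gene, on either strand. Scn8a shared 0.0374%. Scn2a and Scn3a had the most words in common, 529, and Scn3a and Scn9a had 406. Scn2a also shared words with 455 genes outside the 7. Scn3b and Scn4b shared no such word and Scn2b shared 1.01%, all of it with genes outside the 7. The word length was set without knowledge of the read length, which is not given in the sources used here, and reads falling in shared stretches cannot be assigned with certainty. No exon of a member overlapped an exon of another annotated gene.

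Values are FPKM, mapped fragments scaled to transcript length and to the library's total, so levels can be compared between genes. The deposited 95% limits of a single library lay 3.10% to 10.1% to either side of the value for the 7 genes. Averaged over the 4 animals, the order was Scn3b at 68.2 ± 6.43 FPKM, Scn2b at 55.6 ± 3.31, Scn8a at 39.6 ± 2.44, Scn2a at 38.9 ± 2.21, Scn1a at 12.2 ± 0.508, Scn3a at 7.87 ± 0.529 and Scn4b at 4.88 ± 1.23 (SD, n = 4). Scn8a and Scn2a were the neighbours whose ranges over animals overlapped, and Scn8a was the higher of the pair in 3 of 4 animals. In every other neighbouring pair the lowest animal of the higher gene lay above the highest animal of the lower gene.

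**Figure D1:**
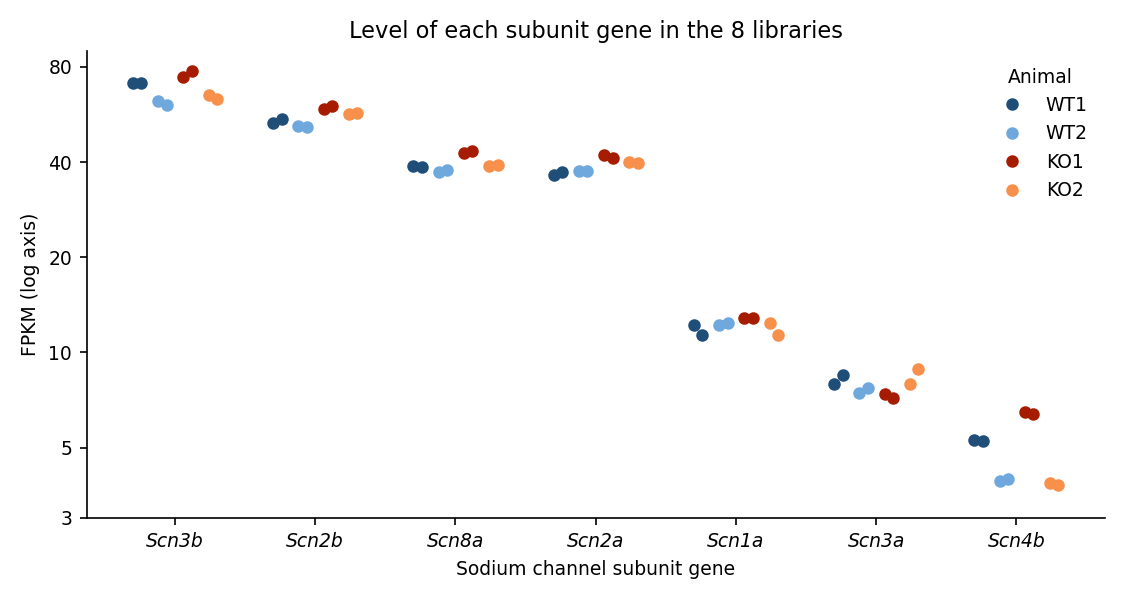
FPKM of the 7 subunit genes (log axis), ordered by mean level, with 1 point per library and the 2 technical replicates of an animal side by side. The genes span from 3.81 FPKM for Scn4b to 77.4 FPKM for Scn3b, and in Scn4b and Scn3b the animals numbered 1 lie above the animals numbered 2 in both groups.

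The genotype label was examined first. Ptk2b was not lower in the animals labelled KO, at 217 ± 20.98 FPKM in WT and 273 ± 6.33 FPKM in KO (SD, n = 2 each; limma adjusted p = 0.158). A sum over the whole gene does not show whether an exon or the protein is lost, so each difference below is given for the animals as labelled. Sums of FPKM were 489121 to 506216 per library, and depth in reads is not known from these tables. Neurons of the hippocampus were represented in all 4 animals, with all 11 principal neuron markers listed (Prox1, Wfs1 and others) above 0 and a summed level of 625 to 662 FPKM in WT and 698 to 737 FPKM in KO. Choroid plexus markers differed between the groups by far more than any sodium channel gene. Their sums were 4289 and 7568 FPKM in WT and 302 and 1253 FPKM in KO. All 10 were lower in both KO animals than in both WT animals, as were 30.7% of all genes tested, and 0 of the 10 had a limma adjusted p under 0.05. All 5 blood markers were lower in the same way, and 2 of them had an adjusted p under 0.05. The part of these tissues in the results below was not tested, and in bulk tissue fewer cells of a type and less RNA per cell cannot be told apart.

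None of the 7 sodium channel genes passed the threshold between KO and WT. The test was limma on log2(FPKM + 1) over 16667 genes with Benjamini-Hochberg adjustment, which called 0.054% of all genes. The differences were small: 6 of 7 means were higher in KO, with a median log2 difference of 0.10, beside 42% of all genes higher and a median of -0.02 over all genes. Without KO1 that median of the 7 was 0.03, and under median-of-ratios scaling or quantile normalization Scn3a, the 1 lower gene, was higher as well. At an unadjusted p under 0.05 there were 2 members, Scn2a and Scn2b, both higher, where 4.11% of all genes were higher at that level. Both KO animals lay above both WT animals for 3 members (Scn2a, Scn8a and Scn2b), against 18.4% of all genes and 25.9% of the 8405 genes with a mean of at least 3 on the log2 scale. Both KO animals lay below both WT animals for 0 members, against 30.7% of all genes. These shares are descriptions of a chosen list. With the animal number added to the model as a block, 1.1% of all genes were called and again 0 of the 7.

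**Figure D2:**
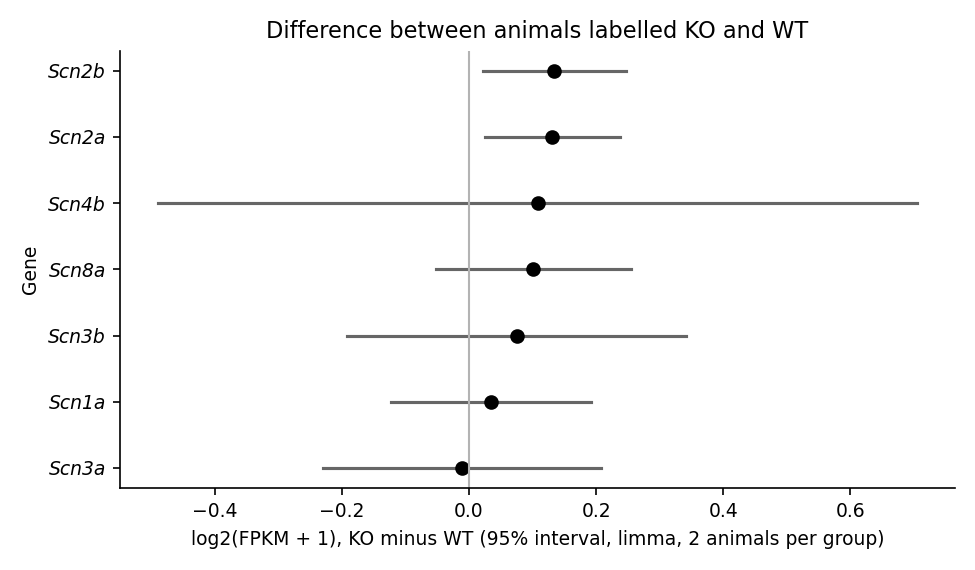
Difference in log2(FPKM + 1) between KO and WT animals for each subunit gene, with points for the estimate and lines for its 95% interval from limma (2 animals per group). Intervals of Scn2a and Scn2b exclude 0 before adjustment for multiple tests, and that of Scn4b is the widest, from -0.49 to 0.70.

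Scn2a (ENSMUSG00000075318, chromosome 2, 65620771 to 65767447 in mm10, plus strand, protein-coding) encodes the alpha subunit Nav1.2. Its level was 36.4 and 37.2 FPKM in the libraries of WT1, 37.4 and 37.4 in WT2, 42.0 and 41.1 in KO1, and 40.1 and 39.7 in KO2. All 4 KO libraries were above all 4 WT libraries. The group means were 37.1 ± 0.419 FPKM in WT and 40.7 ± 1.18 FPKM in KO (SD, n = 2 each), 9.76% higher in KO. On the log2(FPKM + 1) scale this was 0.13 (standard error, SE, 0.04; 95% interval 0.02 to 0.24; limma adjusted p = 0.256).

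Scn8a (ENSMUSG00000023033, chromosome 15, 100869858 to 101045938, plus strand) encodes Nav1.6. Its level was 38.8 and 38.7 FPKM in WT1, 37.2 and 37.9 in WT2, 42.9 and 43.4 in KO1, and 38.8 and 39.1 in KO2. KO1 stood apart on the high side, and KO2 was hardly above WT1 (38.9 and 38.7 FPKM as animal means). The group means were 38.1 ± 0.807 FPKM in WT and 41.0 ± 2.97 FPKM in KO, with a log2 difference of 0.10 (SE 0.06, 95% interval -0.05 to 0.26, limma adjusted p = 0.473). Without KO1 the log2 difference was 0.03.

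Scn1a (ENSMUSG00000064329, chromosome 2, 66270778 to 66440840, minus strand) encodes Nav1.1, the subunit whose loss of 1 copy underlies most cases of Dravet syndrome, a severe childhood epilepsy. It was measured at 12.2 and 11.3 FPKM in WT1, 12.2 and 12.4 in WT2, 12.9 and 12.9 in KO1, and 12.4 and 11.3 in KO2. The groups overlapped, and the technical replicates of KO2 alone differed by 8.95% of their mean, more than the 2.65% between group means. The log2 difference was 0.03 (SE 0.06, 95% interval -0.12 to 0.19, limma adjusted p = 0.834), and it was -0.02 without KO1. This interval includes differences of either sign.

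Scn3a (ENSMUSG00000057182, chromosome 2, 65457118 to 65567627, minus strand) encodes Nav1.3, which declines after birth in rodent brain. It was still detected in every library, at 7.95 and 8.50 FPKM in WT1, 7.42 and 7.73 in WT2, 7.41 and 7.16 in KO1, and 7.93 and 8.88 in KO2. KO1 was the lowest animal and KO2 the highest, so the KO animals enclosed both WT animals. The log2 difference was -0.01 (SE 0.09, 95% interval -0.23 to 0.21, limma adjusted p = 0.964), and its sign turned under median-of-ratios scaling (0.0092) and quantile normalization (0.05).

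Among the beta subunits, Scn2b (ENSMUSG00000070304, chromosome 9, 45117782 to 45130070, plus strand) encodes β2, which is joined to alpha subunits by a disulfide bond. Its level was 53.3 and 54.8 FPKM in WT1, 52.1 and 51.7 in WT2, 58.9 and 60.0 in KO1, and 56.7 and 57.2 in KO2. All 4 KO libraries were above all 4 WT libraries, as for Scn2a. The group means were 53.0 ± 1.52 FPKM in WT and 58.2 ± 1.77 FPKM in KO (SD, n = 2 each), 9.90% higher in KO. The log2 difference was 0.13 (SE 0.04, 95% interval 0.02 to 0.25, limma adjusted p = 0.266).

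Scn2a and Scn2b passed the threshold in 1 alternative, which took all 8 libraries as units with the animal as a random effect. Their adjusted p-values there were 0.0328 and 0.0373, in a fit that called 6.51% of all genes. Over the other alternatives the adjusted p was between 0.192 and 0.708 for these genes.

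Scn3b (ENSMUSG00000049281, chromosome 9, 40269217 to 40291618, plus strand) encodes β3, which binds alpha subunits without a covalent bond. It was measured at 71.0 and 71.3 FPKM in WT1, 62.5 and 60.8 in WT2, 74.2 and 77.4 in KO1, and 65.3 and 63.4 in KO2. The animals split by their number rather than by their label: animal 1 was 1.15 times animal 2 in WT and 1.18 times animal 2 in KO. The log2 difference between KO and WT was 0.08 (SE 0.10, 95% interval -0.19 to 0.34, limma adjusted p = 0.777). It turned to -0.03 without WT2 and to -0.04 without KO1.

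Scn4b (ENSMUSG00000046480, chromosome 9, 45138395 to 45154152, plus strand) encodes β4, whose cytoplasmic tail can block open channels and so supports resurgent sodium current. Its gene starts just downstream of Scn2b on the same strand. The level was 5.27 and 5.26 FPKM in WT1, 3.92 and 3.99 in WT2, 6.49 and 6.40 in KO1, and 3.88 and 3.81 in KO2. Technical replicates of an animal differed by at most 1.76% of their mean, while the highest animal was 1.68 times the lowest.

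This was the widest spread of the 7 genes, with a coefficient of variation over the 4 animals of 25.2%, against 4.16% to 9.42% for the others. Animal 1 was 1.33 times animal 2 in WT and 1.68 times animal 2 in KO. The group means were 4.61 ± 0.926 FPKM in WT and 5.14 ± 1.84 FPKM in KO (log2 difference 0.11, SE 0.23, limma adjusted p = 0.866). The difference was 0.42 without KO2 and -0.20 without KO1, so its sign depended on which animals were included.

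**Figure D3:**
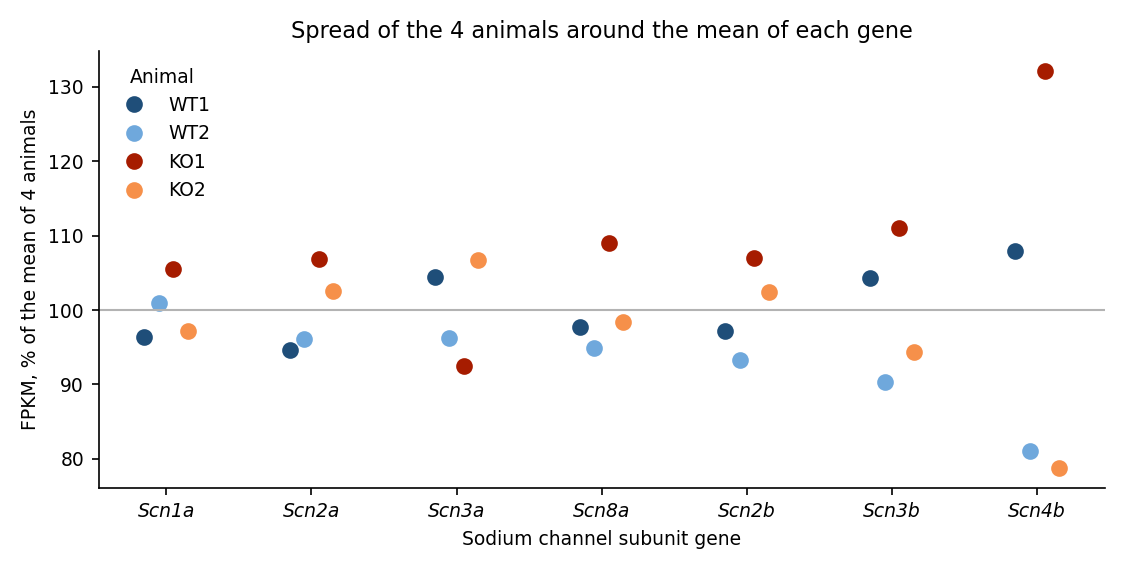
FPKM of each subunit gene in the 4 animals as a percentage of the mean of those 4 animals (mean of 2 technical replicates per point). KO1 is the highest animal for 6 of 7 genes and the lowest for Scn3a, and Scn4b spreads from 78.8% to 132%.

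KO1 was the highest animal for 6 of the 7 genes. Several marker lists also had their highest sum in KO1. Neocortex markers (Mef2c, Tbr1, Lamp5 and others) summed to 77.6 and 81.8 FPKM in WT1 and WT2, 111 FPKM in KO1 and 86.9 FPKM in KO2. Of the 7 listed, 0 passed the threshold and 6 had a higher mean in KO, and none was at 0. Oligodendrocyte and myelin markers summed to 3015 and 2825 FPKM in WT and to 3335 and 2921 FPKM in KO1 and KO2, with 0 of 9 past the threshold. The part of these tissues in the sodium channel levels was not tested.

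Markers of neurons that express particular subunits were set beside them. GABAergic interneuron markers, relevant to Scn1a, summed to 943 and 920 FPKM in WT and 1024 and 967 FPKM in KO, with 0 of 10 past the threshold and 6 of 10 means higher. The smallest p of this list was that of Slc32a1, which encodes the vesicular GABA transporter: it was at 37.9 ± 3.19 FPKM in WT animals and 31.5 ± 1.38 FPKM in KO animals, with both KO animals below both WT animals (limma adjusted p = 0.216). The genes of the GABA-synthesising enzymes had lower means in KO as well, with overlapping groups: Gad1 was at 99.0 ± 5.45 and 96.7 ± 1.48 FPKM, and Gad2 at 29.9 ± 3.12 and 26.8 ± 2.14 FPKM. Pvalb, the parvalbumin gene, had a higher mean, at 21.8 ± 0.536 FPKM in WT and 26.2 ± 4.64 FPKM in KO. So did Vip, at 6.83 ± 1.16 and 9.42 ± 0.671 FPKM, and Npy, at 68.0 ± 10.6 and 83.4 ± 3.34 FPKM. At an unadjusted limma p under 0.05 the list held 3 higher genes (Vip, Cck and Npy) and 1 lower, beside 4.11% and 11.4% of all genes. Both KO animals lay above both WT animals for 5 of the 10 and below for 1, against 18.4% and 30.7% of all genes. Among genes with a mean of at least 3 on the log2 scale, as most of these had, 25.9% lay above. Striatal projection neurons are known for strong Scn4b expression, and their markers summed to 105 and 101 FPKM in WT and 71.8 and 71.9 FPKM in KO. That list held 1 called gene of 9, Ppp1r1b, which fell, and its median log2 difference was -0.10. Thalamus markers summed to 35.9 and 28.7 FPKM in WT and 29.8 and 28.3 FPKM in KO, with 0 of 7 past the threshold. Of the 7, 5 had a higher mean in KO and the median log2 difference was 0.09. Prkcd, a protein kinase C gene, made up much of the sum and had a lower mean in KO, 19.0 ± 5.66 FPKM in WT against 13.5 ± 0.999 FPKM in KO. No marker on these 3 lists was at 0 in the animal means, and their part in the sodium channel levels was not tested.

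**Figure D4:**
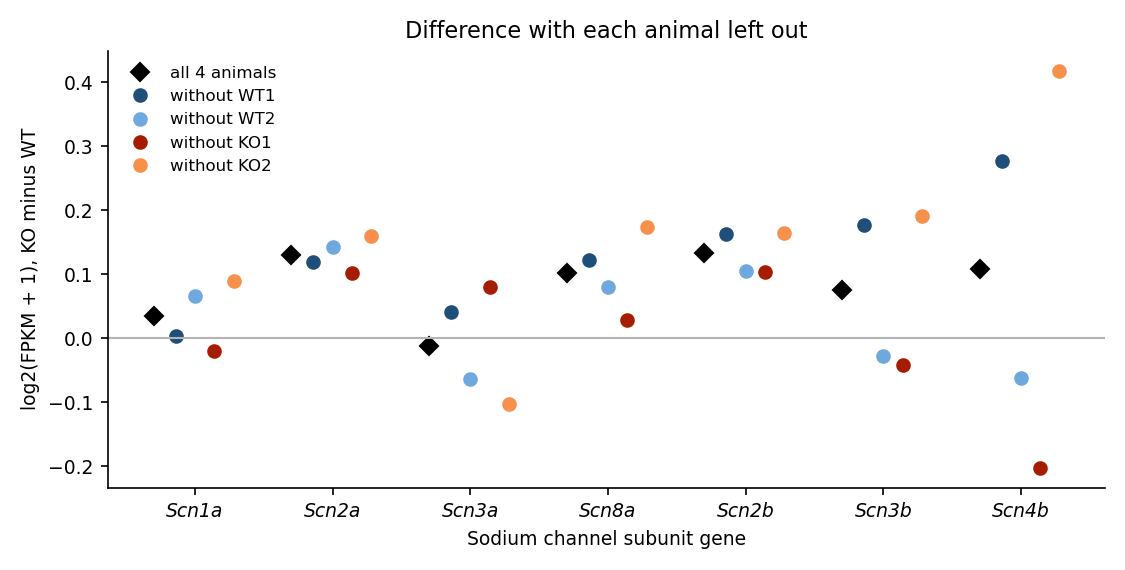
Difference in log2(FPKM + 1) between KO and WT with all 4 animals (diamonds) and with each animal left out in turn (circles). The differences of Scn2a, Scn8a and Scn2b stay above 0, and those of Scn1a, Scn3a, Scn3b and Scn4b fall on both sides of it.

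The make-up of the subunit pool was compared as shares within an animal, on which the scale factor of a library has little bearing. Scn8a and Scn2a together made up most of the alpha pool: Scn8a was 40.5% and 39.6% of the summed alpha FPKM in WT1 and WT2 and 41.1% and 39.3% in KO1 and KO2. Scn2a was 38.5% and 39.4% in WT and 39.6% and 40.3% in KO, with both KO animals above both WT animals (exact two-sided permutation test, p = 0.333, which is the lowest p attainable with this design). Scn1a was 12.3% and 13.0% in WT and 12.3% and 11.97% in KO (exact p = 0.333). Scn3a took 8.61% and 7.99% in WT and 6.95% and 8.48% in KO (exact p = 0.667).

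The beta pool was led by Scn3b, at 54.5% and 52.5% of the summed beta FPKM in WT and 53.5% and 51.4% in KO (exact p = 0.667). Scn2b held 41.4% and 44.2% in WT and 42.0% and 45.5% in KO. Scn4b held 4.04% and 3.37% in WT and 4.55% and 3.07% in KO. The ratio of summed beta to summed alpha FPKM was 1.37 and 1.24 in WT and 1.35 and 1.26 in KO (exact p = 1). Animals numbered 1 had the higher ratio in both groups. Summed alpha FPKM were 95.5 and 94.9 in WT and 105 and 99.1 in KO, with both KO animals above both WT animals (exact p = 0.333). The ratio of Scn2a to Scn8a lay between 0.951 and 1.02 in the 4 animals, and that of Scn2a to Scn3a between 4.47 and 5.70.

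**Figure D5:**
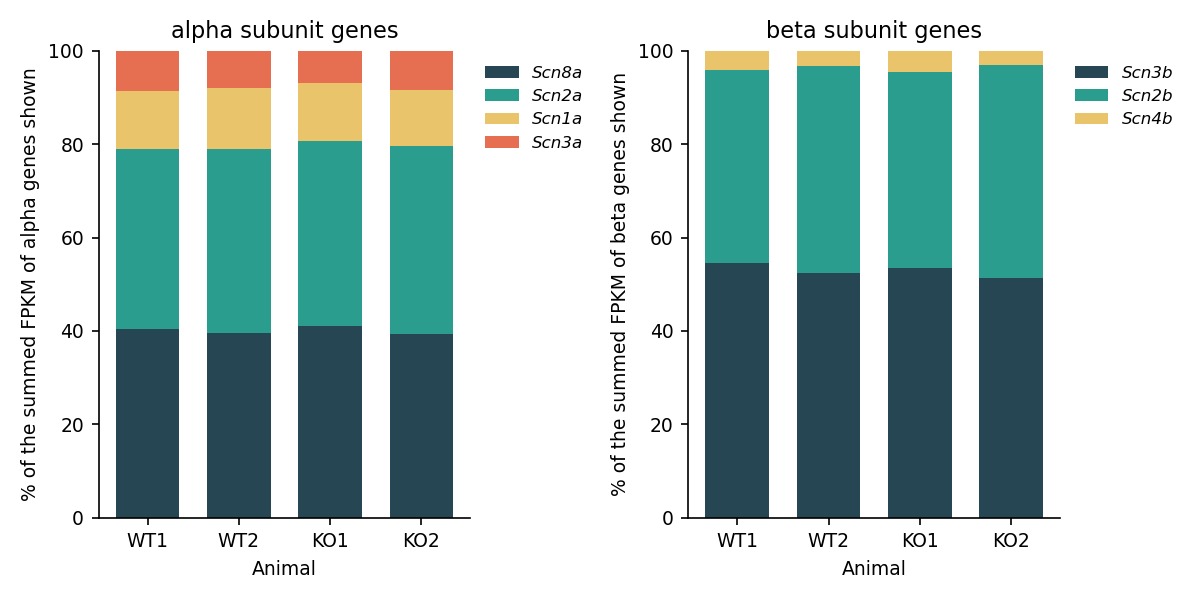
Share of each gene in the summed FPKM of the 4 alpha genes (left) and of the 3 beta genes described (right) in each animal, as stacked bars from 0 to 100%. Scn8a and Scn2a each take 38.5% to 41.1% of the alpha pool in every animal, and Scn4b takes 3.07% to 4.55% of the beta pool.

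Further alpha subunit genes were examined from a list. Scn7a, which encodes a sodium-sensing relative, was at 0.636 ± 0.0771 FPKM in WT and 0.402 ± 0.133 FPKM in KO (SD, n = 2 each). It did not pass the threshold (log2 difference -0.22, limma adjusted p = 0.388). Only the WT animals reached the minimum of 0.5 FPKM for testing (0.581 and 0.690 FPKM, against 0.308 and 0.496 FPKM in KO). A gene kept in this way is favoured to be lower in KO, so nothing is read from its direction. Scn9a, the pain-pathway subunit gene, reached at most 0.612 FPKM in any library and was not tested, and Scn4a, Scn10a and Scn11a, of muscle and sensory neurons, reached at most 0.0364 FPKM.

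Among 43 listed genes that belong to the family, bind or modify its channels, or move sodium by other routes, 39 were tested and 0 passed the threshold in either direction. Of the 39, 28 had a higher mean in KO and the median log2 difference was 0.06. At an unadjusted p under 0.05 there were 7 higher and 3 lower, where 4.11% of all genes were higher and 11.4% lower at that level (15.5% in either direction). Both KO animals were above both WT animals for 14 genes. The share was 18.4% of all genes and 25.9% of genes with a mean of at least 3 on the log2 scale, as most of the list had. Both KO animals were below both WT animals for 6 genes, against 30.7% of all genes. The 6 include Scn7a, which was tested only through its WT values.

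The FGF homologous factors, cytosolic proteins that bind the tail of alpha subunits, went both ways, with 0 of 4 past the threshold. Fgf13 was at 83.4 and 80.8 FPKM in WT1, 78.0 and 78.0 in WT2, 93.2 and 93.8 in KO1, and 93.8 and 91.9 in KO2 (log2 difference 0.22, SE 0.04, limma adjusted p = 0.128). Its groups did not overlap. Fgf12 was at 40.8 ± 1.98 and 45.4 ± 2.13 FPKM in WT and KO, and its groups did not overlap either. Fgf14 was at 7.22 ± 0.189 and 7.21 ± 0.733 FPKM.

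Genes of the axon initial segment and node of Ranvier, where sodium channels cluster, had 9 of 10 means higher in KO and 0 past the threshold, with a median log2 difference of 0.05. Nrcam, a cell adhesion molecule that binds ankyrin, had the smallest p of this list, at 98.4 and 97.6 FPKM in WT1, 101 and 104 in WT2, 117 and 121 in KO1, and 116 and 120 in KO2 (log2 difference 0.24, SE 0.04, limma adjusted p = 0.114). Cntnap1, the paranodal protein Caspr, was at 41.4 ± 0.820 FPKM in WT and 44.9 ± 1.49 FPKM in KO. Ank3, which encodes the ankyrin that anchors sodium channels at the initial segment, was at 73.7 ± 4.53 and 77.9 ± 3.32 FPKM and its groups overlapped; it was named for this role and not for its p.

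Genes that modify, cleave or splice the channels had 9 of 12 means higher and 0 past the threshold. Fyn, a Src family kinase, was at 53.0 ± 0.236 FPKM in WT and 60.9 ± 2.20 FPKM in KO (log2 difference 0.20, SE 0.04, limma adjusted p = 0.150). Bace1, the protease that cleaves β subunits, was at 24.3 ± 0.0897 and 26.7 ± 0.529 FPKM (limma adjusted p = 0.247). Both genes had no overlap between groups.

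Sodium pump genes had 0 of 6 past the threshold, with Atp1b3 at 43.3 ± 0.370 FPKM in WT and 37.5 ± 0.826 FPKM in KO and Atp1b1 at 849 ± 8.34 and 899 ± 4.64 FPKM. The groups did not overlap for either gene, and the differences had opposite signs. The sodium leak channel gene Nalcn and its partner genes had 0 of 4 past the threshold. In that list Fam155a was at 29.9 ± 0.848 and 31.9 ± 1.36 FPKM and Unc79 at 9.11 ± 0.0371 and 9.67 ± 0.0178 FPKM.

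Patterns over the 8 libraries were compared as Pearson's r of log2(FPKM + 1), as a description, since the libraries of an animal are not independent and each library shares its scaling across genes. Scn3b and Scn4b rose and fell together with r = 0.95, Scn2a and Scn2b with r = 0.90 and Scn2b and Scn8a with r = 0.88. Scn1a and Scn3a ran in opposite directions with r = -0.93. Part of this lay between technical replicates of an animal. In WT1 Scn1a was at 12.2 and 11.3 FPKM and Scn3a at 7.95 and 8.50 FPKM. In KO2 they were at 12.4 and 11.3 and at 7.93 and 8.88 FPKM. In WT2 both moved the same way, and in KO1 Scn1a hardly moved. Among animal means KO1 was highest for Scn1a and lowest for Scn3a. Annotated transcripts of these genes had 287 words in common, and the part of such shared stretches in this r was not tested.

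Among 6874 other genes with a mean of at least 10 FPKM, the 2 most like Scn2a were Nrsn1 (r = 0.995) and Tmem30a (r = 0.993), and the 2 most like Scn2b were Grm2, a presynaptic glutamate receptor (r = 0.990), and Ppp2r2c, a phosphatase subunit (r = 0.990). Those most like Scn8a were Lamp5 (r = 0.992), which is also on the neocortex list, and the chemokine gene Cx3cl1 (r = 0.991). Scn3b was most like Dlg3, a synaptic scaffold (r = 0.990), and Snx3 (r = 0.985), and Scn4b was most like Itm2b (r = 0.990) and Cxcl14 (r = 0.982). For Scn3a the closest were Fabp7, a fatty acid binding protein of radial glia and astrocytes (r = 0.947), and Aimp2 (r = 0.925). Scn1a had the loosest matches, Lbh (r = 0.921) and Atg12 (r = 0.909).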

How the data were processed

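Per the file headers, the authors deposited a gene table for every library that holds FPKM, its lower and upper limits and a status. Names in the submitters' processing notes are mm10, HISAT and Bowtie version 1, without their roles. The program behind the FPKM, the read length and the strand setting are not stated. Rows repeating a gene identifier were summed, and 12 values with a failed status, none of a member, were treated as missing. Technical replicates were averaged per animal, genes were tested if 2 or more animals reached 0.5 FPKM, and log2(FPKM + 1), which understates changes of low genes, was fitted with limma 3.58.1 in R 4.3.3 (trended variance, Benjamini-Hochberg adjustment, threshold 0.05). FPKM carry no read counts, so precision is known only from the deposited limits, which cover a single library. The procedure was tested on simulated data. Members, gene lists and tests were chosen with earlier results of these data known. Of each list the genes named are those past the threshold or else the 2 with the smallest p; the 2 genes most like each member by r are also named. Ank3, Fgf14, Pvalb, Nalcn and the marker genes named were picked with their values in view. Coordinates come from the deposited tables and equal those of GENCODE M21 for all 7 genes. Other scalings, filters, pseudocount, units, the animal number as a block and each animal and library left out were tried as alternatives. Figures were drawn with matplotlib 3.10.9. Some results are not reported here.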

Additional observations from a re-analysis of the deposited data

How the results depend on the processing

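The median log2 difference of the 7 genes kept its sign under all 21 alternatives, 8 of which (each library left out) were chosen after seeing the data. It ranged from 0.03 to 0.16, both from leaving out an animal (KO1 and KO2). The count of genes called over the whole table was far less stable than the 9 of the chosen fit. It was 14 with a pseudocount of 0.1, 0 with no filter on low values (3741 at an unadjusted p under 0.05) and 1085 with all 8 libraries as units, and it ranged from 0 to 128 with 1 animal or library left out (0 without WT1 and 0 without WT2, with 1631 and 1327 unadjusted, 1 without KO1 and 128 without KO2, where the spread comes from the group that keeps both animals). The animal number as a replicate block gave 184 calls, and no member passed in it (adjusted p = 0.242 for Scn2a and 0.192 for Scn2b). Only 2 pairs exist and the labels do not say that a number marks a shared litter or day. Deviations of same-numbered animals correlated at 0.185 over 14455 genes, so the numbers do not establish pairs. Signs of single genes turned as follows. Scn3a became 0.0092 with median-of-ratios scaling, 0.049 with quantile normalization, and 0.041 and 0.080 without WT1 and without KO1, and was -0.10 to 0.08 over animals left out, and leaving out libraries gave 0.011, 0.0020 and 0.024. Scn3b ranged from -0.041 to 0.19, Scn4b from -0.20 to 0.42 and Scn1a from -0.020 to 0.089 with an animal left out, with -0.027 and -0.061 for Scn3b and Scn4b without WT2. The difference in the ratio of beta to alpha FPKM, 0.0049, became -0.011 with technical replicate 1 alone; the cause was not tested.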
